A study of Danio rerio with 27 samples.

Results

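Translation initiation factor genes were taken as every row of the expression table whose gene name begins with eif and a digit between 1 and 6, leaving out the eif2ak kinases. The rule found 74 gene identifiers, with 60 distinct symbols, among the 24101 genes of the table. Of the symbols 14 have 2 identifiers each, and transcripts could be split between such copies, so the values of those 28 identifiers are uncertain and they are printed with their identifier. The authors listed a gene where all libraries of some group had a TPM of 1 or more, and 71 of the 74 reached this in all 9 groups. eif4ba (ENSDARG00000117080) reached it in 28C-DMSO alone, so a lower value of it against that group is built in by the filter and its calls are no result.

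Initiation factors bring the small ribosomal subunit, the initiator tRNA and the messenger RNA together and place the ribosome on the start codon. eIF2 carries the initiator tRNA and is recharged with GTP by eIF2B, eIF3 is a many-subunit scaffold on the small subunit, and eIF4E, eIF4G and the helicase eIF4A load capped messenger RNA. The 4E-BP proteins bind eIF4E and block it, and in flies the 4E-BP gene is a known target of FoxO, a transcription factor held in check by insulin signaling.

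Transcript levels were measured by RNA sequencing of whole zebrafish larvae of the AB strain, 3 libraries in each of 9 groups. In 8 groups larvae spent 12 h from 96 h post fertilization (hpf) at 10 °C or at 28 °C, the usual rearing temperature. At each temperature larvae received 0.5 µM AS1842856, which inhibits the transcription factor Foxo1 (10C-AS, 28C-AS), 5 µM PD0325901, which inhibits the ERK-activating kinase MEK (10C-PD, 28C-PD), 50 µM SB203580, which inhibits p38 kinases (10C-SB, 28C-SB), or 0.1% DMSO as vehicle (10C-DMSO, 28C-DMSO). The group named 96hpf was untreated. All groups are wild type and whole animals mix many tissues, so fewer cells of a type and less RNA per cell cannot be told apart.

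Levels are given as scaled TPM, a length-corrected share of a library's transcripts after division by a size factor, and changes as log2 differences of scaled TPM + 1. A gene was called higher or lower where its limma adjusted p did not exceed 0.05 and its fold was at least 1.5. TPM keeps no read depth and the read totals of the libraries are not used here. The labels do not tie replicates to different clutches, so p-values measure only the spread between these samples. The library 10C-DMSO replicate 1 had a residual SD, its spread about the group means, of 0.254, against 0.211 and 0.233 in replicates 2 and 3. Its lowest correlation to its group, 0.964, was shared with replicate 3. It held 8.42% mitochondrial transcripts, against 11.2% and 11.4% in the other libraries of the group. In 28C-DMSO replicate 1 that share was 7.30%, against 9.91% and 9.69%. The residual SD of 28C-DMSO replicate 1 was 0.234, against 0.205 and 0.193 in replicates 2 and 3. Its lowest correlation to its group, 0.969, was shared with replicate 2.

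The summed level of the family was highest in 28C-AS. Its summed share of all transcripts, from TPM as deposited, was 0.860, 0.867 and 0.868% in the 28C-AS libraries. In the other 24 libraries it lay between 0.677 and 0.728%, and the 28C-PD libraries, at 0.720, 0.724 and 0.728%, were above the remaining 21. After scaling by size factors the 28C-AS sums, at 8615 to 8726 scaled TPM, were still above all others, which ended at 7395. The 28C-PD sums, at 6465 to 6594, were then below those of 28C-DMSO, at 6772 to 7110, so their direction turned with the scaling. Every 28C-AS library was above every other library, while the 10C-AS libraries, at 0.680 to 0.694%, overlapped the 10C-DMSO libraries, at 0.680 to 0.712%. The plot of the summed share by group shows this.

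**Figure D1:**
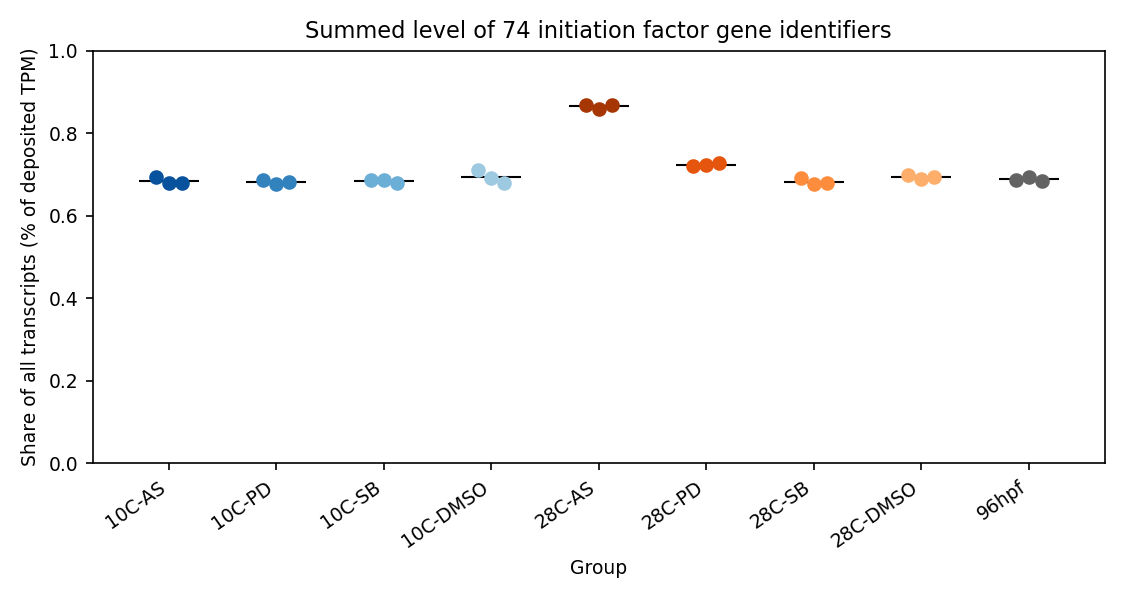
Summed level of the 74 identifiers as a percentage of deposited TPM, with 1 point per library and a line at each group mean (n = 3). The 28C-AS libraries sit between 0.860 and 0.868%, above the other 24 libraries, which end at 0.728%.

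Members differed widely in level. eif5a, which encodes a factor that helps ribosomes past difficult peptide bonds, was the most abundant at a mean of 1114 scaled TPM over all 27 libraries. It was followed by eif1b, a start-codon selection factor, at 507 and by eif3f, a subunit of eIF3, at 353. In all, 24 members had a mean of at least 100 and 3 had a mean under 5. The most abundant eIF2 subunit gene was eif2s3 at 278, the most abundant helicase gene was eif4a1b (ENSDARG00000003032) at 205, and the most abundant 4E-BP gene was eif4ebp2 at 131.

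AS1842856 was first compared with vehicle at 28 °C. Of the 74 members 21 were higher in 28C-AS than in 28C-DMSO and 3 were lower, which is 28.4% and 4.05% of the members, against 6.39% and 5.81% of all genes. The lower ones include eif4ba (ENSDARG00000117080), whose call is built in by the filter and is no result. At an adjusted p of 0.05 or less with any fold, 44 were higher and 6 lower, which is 59.5% and 8.11%, against 17.6% and 16.7% of all genes. The median log2 change was 0.33 over the members and -0.01 over all genes tested. With the identifiers of a symbol summed, 17 of 60 symbols were higher and 2 lower, against 6.52% and 5.81% of all symbols.

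The start-codon factors include the gene with the largest rise. eif1axa, which encodes eIF1A, a small factor that keeps the scanning ribosome open, was at 65.0, 64.1 and 59.8 scaled TPM in 28C-AS libraries and at 22.5, 29.7 and 23.7 in 28C-DMSO libraries. The groups did not overlap, and the log2 change was 1.29 with a standard error of 0.10 (adjusted p = 2.32e-09, limma). eif5b, the GTPase that joins the large subunit, averaged 16.1 ± 0.596 in 28C-AS and 9.26 ± 0.716 in 28C-DMSO (SD, n = 3 each), a log2 change of 0.74. Of the 8 identifiers in this role these 2 were called. eif1b went the other way by a small amount, at 418 ± 1.03 in 28C-AS and 465 ± 9.36 in 28C-DMSO, a log2 change of -0.15 (adjusted p = 0.00445).

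All 6 genes for eIF2 and for other proteins that deliver initiator tRNA passed an adjusted p of 0.05 upward, and 4 were called. eif2a, which encodes eIF2A, a single-chain protein distinct from the eIF2 complex, was at 30.1, 30.2 and 28.7 scaled TPM in 28C-AS libraries and at 13.2, 14.8 and 15.5 in 28C-DMSO libraries, a log2 change of 0.99. Its 28C-AS libraries were above all 24 others. The eIF2 alpha subunit gene eif2s1b rose by 0.69 and the beta subunit gene eif2s2 by 0.68 on the log2 scale. eif2d, which encodes another tRNA-delivering protein, rose by 0.73. The alpha copy eif2s1a changed by 0.49 and the gamma subunit gene eif2s3 by 0.38, both past the adjusted p but under the fold threshold. Of 7 identifiers for subunits of eIF2B, the exchange factor, 1 was called, eif2b1 (ENSDARG00000091402) at 0.71. That call was lost without 28C-DMSO replicate 1 (0.48), without 28C-AS replicate 3 (0.56) and for the summed symbol (0.35).

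Of 18 eIF3 identifiers 6 were called higher and 14 passed the adjusted p upward, while 1 passed downward and 3 passed neither way. eif3ba, for the b subunit, was at 335, 337 and 338 scaled TPM in 28C-AS libraries and at 200, 203 and 203 in 28C-DMSO libraries, and this log2 change of 0.73 had the smallest adjusted p among the members (2.37e-13, limma). The loosely bound j subunit genes eif3ja and eif3jb rose by 0.75 and 0.67, eif3s10, an older name of the a subunit gene, by 0.71, eif3s6ip, an older name of the l subunit gene, by 0.61 and eif3c by 0.61. With quantile normalization eif3c fell under the fold threshold, at 0.57. eif3hb, a low-level h subunit copy, averaged 5.94 ± 1.33 in 28C-AS and 9.18 ± 1.29 in 28C-DMSO, while its duplicate eif3ha averaged 169 ± 4.08 and 131 ± 6.51 in those groups.

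Helicase genes and their helpers rose as well, with 5 of 9 identifiers called higher. eif4a1a, which encodes an eIF4A RNA helicase, was at 227, 223 and 203 scaled TPM in 28C-AS libraries and at 133, 115 and 99.6 in 28C-DMSO libraries, a log2 change of 0.91. eif4a2, its paralog, rose by 0.66. Both identifiers of eif4bb, which encodes eIF4B, a stimulator of the helicase, rose, by 0.93 and 0.82. The copies of eif4ba went apart. ENSDARG00000017439 rose by 0.83, while ENSDARG00000117080, listed through 28C-DMSO alone, averaged 0.344 ± 0.467 in 28C-AS and 2.18 ± 0.937 in 28C-DMSO, 1 of the 3 lower calls. Summed over both, eif4ba changed by 0.54 and was not called.

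The genes of the cap-binding complex split. eif4g1a, for the scaffold eIF4G that bridges cap and ribosome, was at 51.9, 57.9 and 58.5 scaled TPM in 28C-AS libraries and at 27.5, 30.8 and 31.9 in 28C-DMSO libraries, a log2 change of 0.88, and it was the 1 scaffold identifier of 7 that was called. Of 8 cap-binding identifiers eif4eb (ENSDARG00000013274) rose by 0.63, a call lost without 28C-DMSO replicate 1 (0.50), with library weights (0.58) and for the summed symbol (0.18). eif4e3, a divergent cap-binding protein, fell by 0.72, at 15.5 ± 1.56 in 28C-AS and 26.1 ± 0.568 in 28C-DMSO.

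Of 6 identifiers for 4E-binding repressors 1 was called lower and 0 higher. eif4ebp3 was at 46.3, 41.1 and 36.8 scaled TPM in 28C-AS libraries and at 64.4, 84.7 and 70.8 in 28C-DMSO libraries, a log2 change of -0.81 (standard error 0.09, adjusted p = 7.99e-07, limma). Its 28C-AS libraries were the lowest 3 of all 27. The same was true of eif4ebp1 (ENSDARG00000043608), at 48.4, 44.0 and 41.8 in 28C-AS libraries and 50.2, 56.9 and 59.9 in 28C-DMSO libraries, a log2 change of -0.31 that passed the adjusted p but not the fold. eif4ebp2, the most abundant repressor gene, averaged 144 ± 3.99 and 120 ± 12.5 in those groups, a log2 change of 0.26. Over the 6 identifiers in this role the median change was -0.24. eif5a2, a paralog of eif5a, rose by 0.85, at 372 ± 6.43 in 28C-AS and 207 ± 19.5 in 28C-DMSO, and eif5a itself changed by 0.21. The plot of all members by role shows these changes with their intervals.

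**Figure D2:**
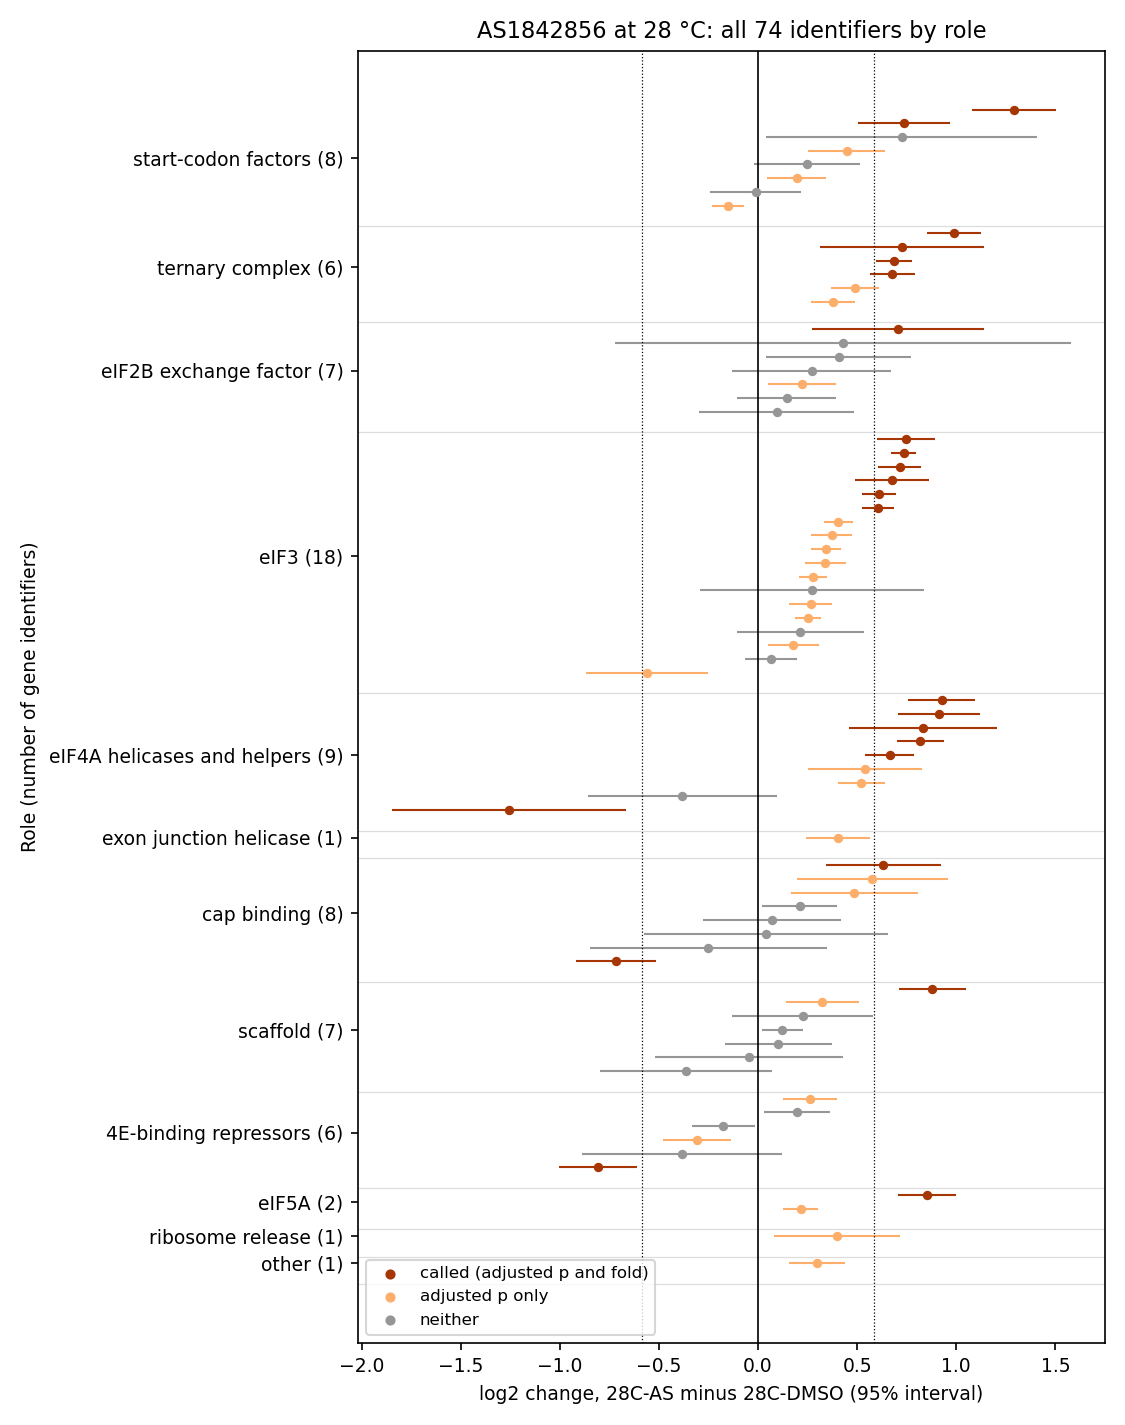
log2 change in 28C-AS against 28C-DMSO for all 74 identifiers, grouped by role, with 95% intervals and dotted lines at a fold of 1.5. Identifiers called higher lie in 8 of the roles. All 6 identifiers of the role labeled ternary complex, which holds eif2a and eif2d besides eIF2 subunit genes, lie right of 0. The median of the 4E-binding repressors lies left of 0, at -0.24.

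Across all 9 groups, 46 of 74 members had their highest group mean in 28C-AS, against 22.1% of all genes. In 30 members all 28C-AS libraries lay above the other 24 libraries, where 8.7% of all genes did so. In 2 members, the repressor genes eif4ebp3 and eif4ebp1 (ENSDARG00000043608), they lay below all others, against 6.16% of all genes. The plot of levels in every library shows 8 members with different patterns.

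**Figure D3:**
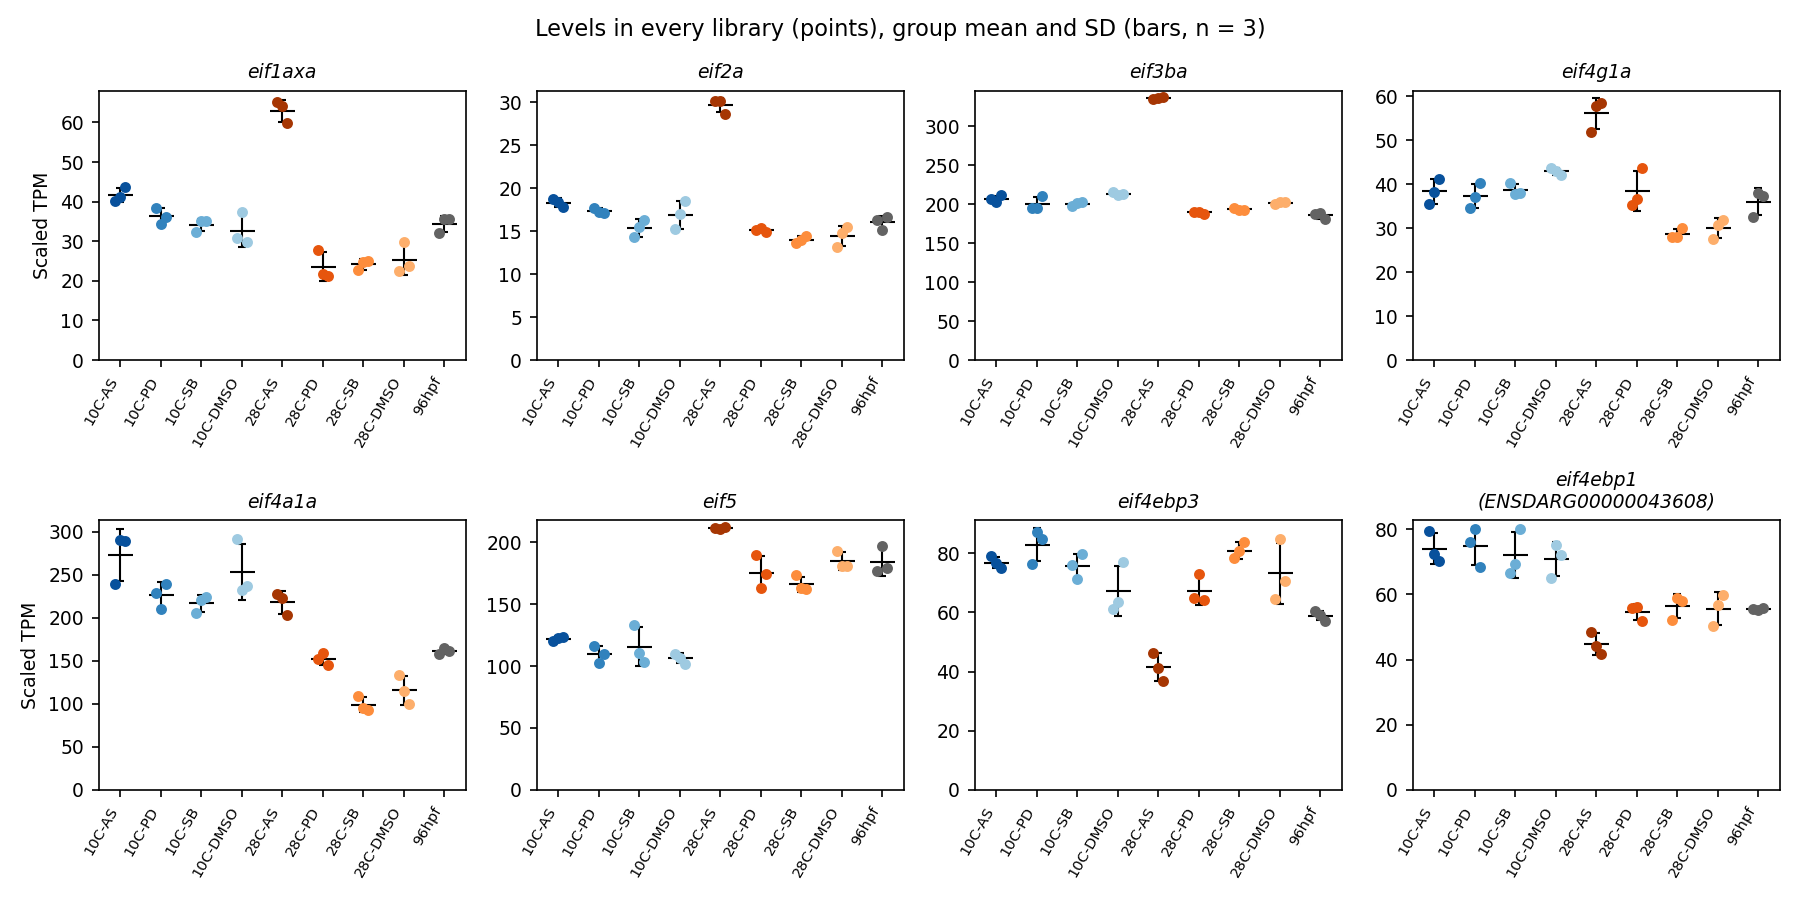
Scaled TPM of 8 members in every library (points) with group mean and SD (n = 3). eif1axa, eif2a, eif3ba and eif4g1a are highest in 28C-AS, eif4ebp3 and eif4ebp1 are lowest there, eif4a1a is higher at 10 °C and in 28C-AS than in 28C-DMSO, and eif5 is lower in every 10 °C library than in every 28 °C library.

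Other genes of protein synthesis were counted in the same comparison, where 6.39% of all genes were higher and 5.81% lower, and the examples named here were chosen after their values were seen. Of 24 identifiers listed under elongation and termination 6 were higher and 1 lower. The 6 include both identifiers of eef2a.1, and eef1akmt1, which was listed only because its name begins with eef1. The ribosome recycling gene abce1 averaged 65.1 ± 0.427 in 28C-AS and 33.7 ± 1.15 in 28C-DMSO, a log2 change of 0.93, and the release factor genes etf1b and gspt1l rose by 0.90 and 0.75. eef2k, the kinase that inhibits elongation factor 2, fell by 0.67. Of 16 identifiers of initiation regulators 3 were higher and 3 lower. Those lower were pdcd4a, which encodes an inhibitor of eIF4A and fell by 0.91 on the log2 scale, and both identifiers of pdcd4b. Those higher were denr, larp1 and larp4ab (ENSDARG00000074979), at 0.89, 0.68 and 1.11. Of 7 identifiers for eIF2 kinases and phosphatase subunits 1 was called, ppp1r15a, which directs a phosphatase to eIF2 and fell by 0.77. Of 20 identifiers of TOR signaling 2 were higher and 1 lower, and of 6 for poly(A) binding 0 were called.

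Markers of some cell types moved in the same comparison. The summed level of 8 identifiers of proliferating cells was 427 to 467 scaled TPM in 28C-AS and 284 to 293 in 28C-DMSO, and 3 of the 8 were called higher. The sum of 6 liver markers was 4842 to 5200 in 28C-AS and 7321 to 8014 in 28C-DMSO, with 1 called lower, and 3 of 6 lens, 2 of 9 epidermis and 2 of 7 photoreceptor identifiers were lower. The sum of 13 exocrine pancreas markers was 20232 to 21150 in 28C-AS and 24906 to 26317 in 28C-DMSO, with 0 called. The mitochondrial share was 10.8, 10.8 and 11.1% in 28C-AS libraries and 7.30, 9.91 and 9.69% in 28C-DMSO libraries. Their part in the result was not tested.

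Few members were called with AS1842856 at 10 °C. The paper's count-based test listed more genes in this comparison than the 98 higher and 125 lower called here. Few calls thus do not show that the members were unaffected. Of the 74, 0 were higher in 10C-AS than in 10C-DMSO and 2 were lower, which is 0 and 2.70% of the members, against 0.407% and 0.519% of all genes. Both lower ones are copies that share a symbol. eif2b2 (ENSDARG00000114220) was listed at 0 in 1 library and at 5.36 and 1.92 scaled TPM in the other 10C-AS libraries, against 13.25, 12.95 and 13.44 in 10C-DMSO libraries, and eif4a1b (ENSDARG00000116907) was at 107, 91.5 and 65.3 against 282, 138 and 155. Both calls were lost without 10C-DMSO replicate 1 and for the summed symbols, at -0.26 and -0.21. The eif2b2 call was also lost without 10C-AS replicate 1 (-1.72), and the eif4a1b call without 10C-AS replicate 3 (-0.87). At an adjusted p with any fold 3 were higher and the same 2 lower, against 1.9% and 1.74% of all genes, and the higher ones were the repressor gene eif4ebp3l at 0.47 and the eIF3 genes eif3jb and eif3ja at 0.35 and 0.27. Of the members that rose most at 28 °C, eif1axa averaged 41.7 ± 1.86 in 10C-AS and 32.7 ± 4.18 in 10C-DMSO. That log2 change of 0.35 missed the threshold (adjusted p = 0.059, limma). eif2a and eif4a1a both changed by 0.11, eif4bb (ENSDARG00000010194) by 0.05 and eif4ba (ENSDARG00000017439) by 0.03. eif4g1a, eif5a2 and eif4bb (ENSDARG00000112432) went the other way, at -0.16, -0.15 and -0.19. None of these changes passed the adjusted p. Proliferating-cell markers summed to 310 to 339 scaled TPM in 10C-AS and 311 to 356 in 10C-DMSO, and 0 of the 8 were called. Lower in 10C-AS were 1 of 10 skeletal muscle and 1 of 6 liver identifiers. Muscle markers summed to 11482 to 12806 in 10C-AS and 13106 to 14725 in 10C-DMSO, and epidermis markers to 7676 to 8112 and 8351 to 9842. Photoreceptor markers summed to 2893 to 3166 and 3243 to 3402, and neuron markers to 1137 to 1159 and 1025 to 1074. The sums of the remaining marker sets overlapped. The part of these markers was not tested.

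Whether the effect of AS1842856 differed between temperatures was tested as the change at 10 °C minus the change at 28 °C. The difference was called for 23 members, 5 higher and 18 lower, which is 6.76% and 24.3%, against 5.36% and 5.39% of all genes. The higher ones include eif4ba (ENSDARG00000117080), whose call is built in by the filter and is no result. With any fold 7 passed the adjusted p as higher and 33 as lower, against 10.4% and 11.0% of all genes. The median difference was -0.31 over the members and 0.01 over all genes. eif4g1a differed by -1.04, eif5a2 by -1.01, eif1axa by -0.94 and eif2a by -0.88. In the opposite direction eif4ebp3 differed by 1.00 (adjusted p = 1.03e-05, limma) and eif4e3 by 0.91. At 10 °C eif4ebp3 averaged 76.9 ± 1.99 in 10C-AS and 67.2 ± 8.58 in 10C-DMSO. That log2 change of 0.20 did not pass the adjusted p (0.254, limma). eif3ba averaged 207 ± 4.42 in 10C-AS and 213 ± 1.82 in 10C-DMSO, next to 336 ± 1.49 in 28C-AS and 202 ± 1.76 in 28C-DMSO. Of the 23 calls 5 were lost without single libraries. The eif6 call was lost without 28C-DMSO replicate 2 or 3, 28C-AS replicate 1 or 2, 10C-DMSO replicate 1 or 2, or 10C-AS replicate 2 or 3 (-0.65 to -0.40). The eif2s2 call was lost without 28C-DMSO replicate 1 or 3, 28C-AS replicate 2, 10C-DMSO replicate 3 or 10C-AS replicate 2 (-0.58 to -0.53), and the eif5b call without 28C-DMSO replicate 1, 10C-DMSO replicate 3 or 10C-AS replicate 1 (-0.58 to -0.51). The call for eif4ba (ENSDARG00000017439) was lost without replicate 1 of 28C-DMSO, 28C-AS or 10C-AS, or 10C-DMSO replicate 2 or 3 (-0.75 to -0.62), and that for eif4ebp3l without 10C-DMSO replicate 1 (0.57). The plot of the change at each temperature shows most called members well above the diagonal.

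**Figure D4:**
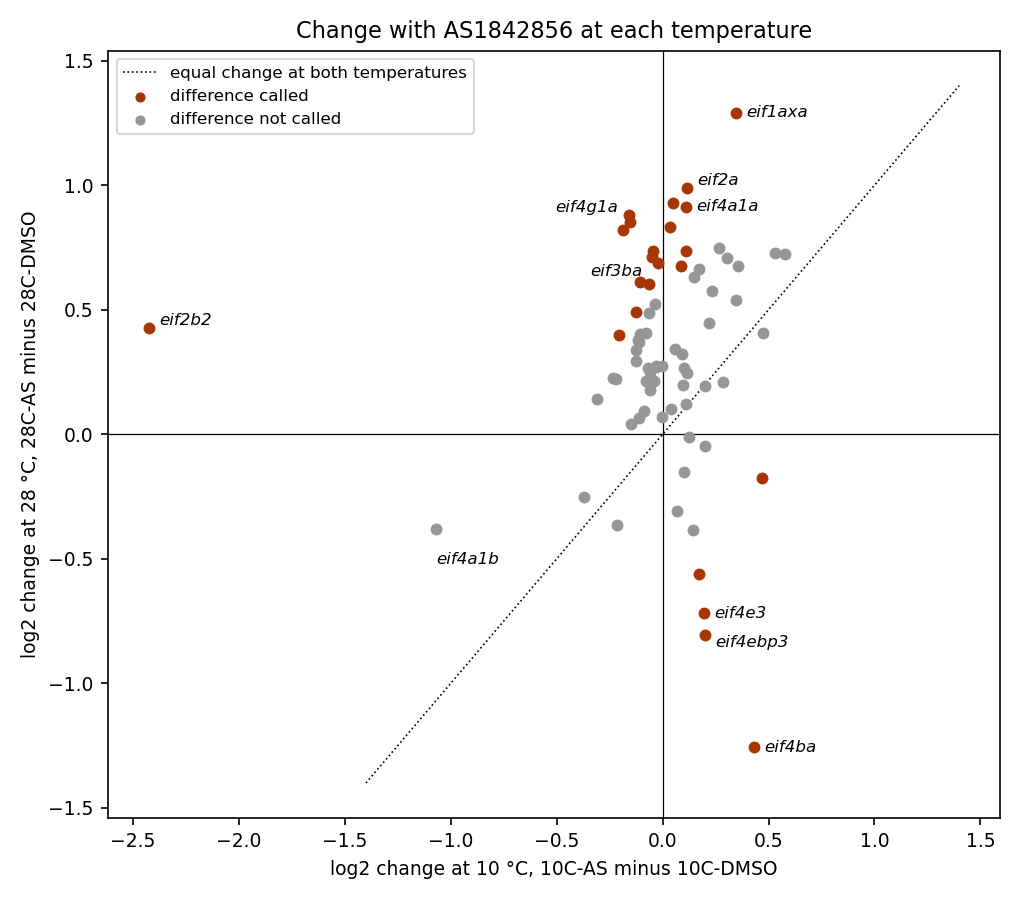
log2 change with AS1842856 at 28 °C (vertical) against that at 10 °C (horizontal) for the 74 identifiers, from comparisons that share no libraries, with the 23 called differences in dark orange. eif1axa and eif2a lie above the dotted line of equal change, at 1.29 and 0.99 on the vertical axis, and eif4ebp3 lies below it, at -0.81.

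Cold against 28 °C with vehicle alone gave 4 calls. In 10C-DMSO against 28C-DMSO 2 members were higher and 2 lower, each 2.70% of the family, against 8.73% and 7.06% of all genes. The lower ones include eif4ba (ENSDARG00000117080), whose call is built in by the filter and is no result. At an adjusted p with any fold 19 were higher and 9 lower, which is 25.7% and 12.2%, against 21.0% and 18.9% of all genes. The median change of the members was 0.02. Of 18 eIF3 identifiers 0 were called, and 3 passed the adjusted p in each direction.

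eif5, the factor that makes eIF2 hydrolyze its GTP at the start codon, was at 110, 107 and 102 scaled TPM in 10C-DMSO libraries and at 193, 181 and 180 in 28C-DMSO libraries. The log2 change was -0.79 with a standard error of 0.07 (adjusted p = 1.45e-08, limma). It was also -0.79 with AS1842856, -0.67 with PD0325901 and -0.53 with SB203580, the last under the fold threshold. Every library at 10 °C was below every library at 28 °C.

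The helicase gene eif4a1a rose the most, at 291, 232 and 237 scaled TPM in 10C-DMSO libraries against 133, 115 and 99.6 in 28C-DMSO libraries, a log2 change of 1.12 (adjusted p = 9.61e-09, limma). It changed by 1.13 with SB203580, by 0.56 with PD0325901 and by 0.32 with AS1842856, where the 28 °C level was 203 to 227 scaled TPM. eif4g2b (ENSDARG00000057167), which encodes a relative of eIF4G that lacks the eIF4E-binding part, rose by 0.84, at 86.4, 107 and 94.5 in 10C-DMSO libraries and 67.2, 50.5 and 44.1 in 28C-DMSO libraries. The 4th call was eif4ba (ENSDARG00000117080), the copy that the filter admitted through 28C-DMSO alone, listed at 0 in 2 of the 10C-DMSO libraries and at 3.25, 1.52 and 1.76 in 28C-DMSO, and it was lost for the summed symbol (-0.08). The number of calls was 9 without 28C-DMSO replicate 2 and 7 without 10C-DMSO replicate 1.

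The other cold responses differed in number. In 10C-AS against 28C-AS 2 members were higher and 16 lower, against 12.2% and 10.2% of all genes, and with any fold 10 were higher and 42 lower, against 25.2% and 24.6%. The same 28C-AS libraries were compared with 28C-DMSO above, so those results are not independent of these. The median change of the members was -0.35 here and 0.33 in 28C-AS against 28C-DMSO. It was 0.02 in 10C-AS against 10C-DMSO and in 10C-DMSO against 28C-DMSO. Over the 18 eIF3 identifiers the median in 10C-AS against 28C-AS was -0.41. Proliferating-cell markers summed to 310 to 339 scaled TPM in 10C-AS and 427 to 467 in 28C-AS (4 of 8 lower). Liver markers summed to 7610 to 7819 in 10C-AS and 4842 to 5200 in 28C-AS (3 of 6 higher). Exocrine pancreas markers summed to 13212 to 15400 in 10C-AS and 20232 to 21150 in 28C-AS (5 of 13 lower). Also higher were 4 of 7 photoreceptor, 3 of 9 epidermis, 1 of 6 lens and 1 of 10 skeletal muscle identifiers. The part of all these markers was not tested. Members called lower included eif3s6ip at -0.82, eif5 at -0.79, eif2s1b at -0.71, eif3ba at -0.70 and eif2a at -0.67. The members called higher were eif4ebp3 at 0.88 and eif4ebp1 (ENSDARG00000043608) at 0.72. With quantile normalization eif4ebp1 (ENSDARG00000043608) was at 0.52 and not called. The call for eif2s3 was lost without 28C-AS replicate 2 (-0.58), and that for eif2b4 without 28C-AS replicate 3 (-0.42) or 10C-AS replicate 2 (-0.56) or 3 (-0.56). In 10C-PD against 28C-PD 1 was higher, eif1axa at 0.61, and 5 were lower, against 10.4% and 7.17%, and with any fold 20 were higher and 12 lower, against 23.3% and 20.9%. The eif1axa call was lost with TPM as deposited (0.45), with quantile normalization (0.47) and without 28C-PD replicate 2 (0.56) or 3 (0.55) or 10C-PD replicate 1 (0.57). Those lower were eif5 at -0.67, eif4g3b (ENSDARG00000074331), a scaffold copy, at -0.98, and 3 copies whose calls were lost for the summed symbols, eif2b2 (ENSDARG00000114220) at -1.72, eif4a1b (ENSDARG00000116907) at -0.96 and eif4ea (ENSDARG00000077012) at -0.64. The eif2b2 call was also lost without 10C-PD replicate 2 (-1.0). In 10C-SB against 28C-SB 2 were higher, eif4a1a at 1.13 and eif4eb (ENSDARG00000013274) at 0.71, and 0 lower, against 9.39% and 6.83%, and with any fold 17 were higher and 12 lower, against 21.9% and 19.2%. The count of 2 was 5 without 28C-SB replicate 1, 4 without 28C-SB replicate 3 and 5 without 10C-SB replicate 1. Of 13 exocrine pancreas identifiers 9 were lower in 10C-PD against 28C-PD and 13 in 10C-SB against 28C-SB. Of 9 epidermis identifiers 3 were higher with PD0325901 and 1 with SB203580, and of 7 photoreceptor identifiers 2 and 3. Of 6 lens identifiers 0 were lower with PD0325901 and 2 with SB203580. The part of these markers was not tested.

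The 4 cold responses share no libraries. In all 4 of them 6 members passed the adjusted p upward and 3 downward, which is 8.11% and 4.05%, against 10.7% and 7.75% of all genes. 0 members passed the fold threshold as well in all 4, where 4.85% of all genes did so upward and 2.03% downward. Those higher were eif4a1a, eif4ebp1 (ENSDARG00000043608), eif1b, eif3jb, eif4g2b (ENSDARG00000112658) and eif4g2a, and those lower were eif5, eif3eb (ENSDARG00000002549) and eif4enif1, which encodes a protein that binds eIF4E and takes it to the nucleus. That eif3eb identifier is the minor copy. The main copy, ENSDARG00000113466, changed by -0.02 with DMSO, -0.33 with AS1842856, 0.09 with PD0325901 and 0.01 with SB203580. The summed symbol eif3eb turned upward with PD0325901. With PD0325901 the direction of eif4g2a turned under other scalings, to -0.0033 for TPM as deposited and -0.062 after quantile normalization. In 3 members, eif1b, eif4ebp1 (ENSDARG00000043608) and eif4g2b (ENSDARG00000112658), every library at 10 °C was above every one at 28 °C, and in eif5, eif3eb (ENSDARG00000002549) and eif4enif1 every one was below, where 8.2% and 5.81% of all genes were separated in that way.

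**Figure D5:**
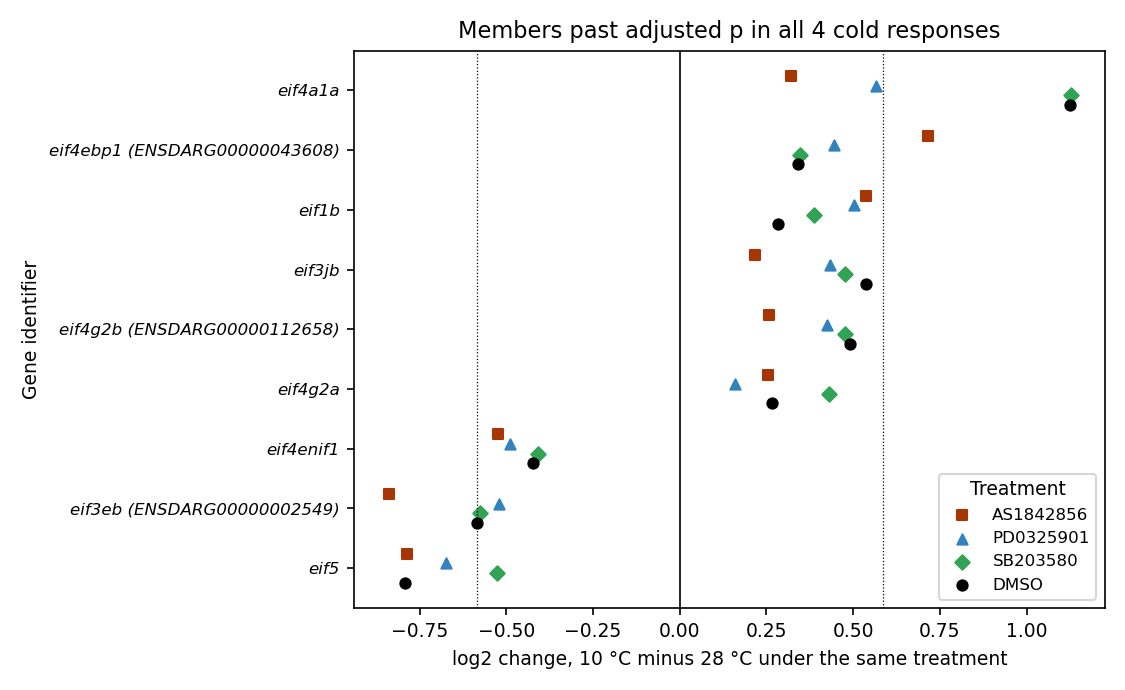
log2 change at 10 °C against 28 °C under each treatment for the 9 members past the adjusted p in all 4 cold responses, with dotted lines at a fold of 1.5. eif4a1a spreads between 0.32 and 1.13, while eif5 lies between -0.79 and -0.53. The eif3eb identifier shown is the minor copy, ENSDARG00000002549.

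Genes that act on initiation factors were counted in 10C-DMSO against 28C-DMSO, where 8.73% of all genes were higher and 7.06% lower. Of 7 identifiers for eIF2 kinases and phosphatase subunits 1 was called, ppp1r15a. It averaged 120 ± 2.29 scaled TPM in 10C-DMSO and 29.2 ± 3.14 in 28C-DMSO, a log2 change of 2.00. mknk2b, a kinase of eIF4E, rose by 1.81 and mknk1 by 1.01. larp4ab (ENSDARG00000074979), which encodes an RNA-binding protein, averaged 13.9 ± 0.510 in 10C-DMSO and 5.52 ± 0.173 in 28C-DMSO. In 96hpf it averaged 9.82 ± 0.815, and 28C-DMSO was called lower than 96hpf, at -0.73, while 10C-DMSO was not called against 96hpf. Of 16 identifiers of initiation regulators 4 were called higher and 0 lower, and of 24 for elongation and termination 1 was higher. Of 20 for TOR signaling 2 were higher, ddit4 at 0.98 and sesn2 at 0.97, and 1 was lower, tsc1a (ENSDARG00000113892) at -0.60. All 13 exocrine pancreas identifiers were lower in the same comparison, with summed levels of 12568 to 15189 in 10C-DMSO and 24906 to 26317 in 28C-DMSO. Higher were 3 of 7 photoreceptor, 2 of 9 epidermis, 1 of 6 liver and 1 of 10 skeletal muscle identifiers, and 1 of 8 proliferating-cell identifiers was lower. The part of these markers in the members' changes was not tested.

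Few members were called against the start of the exposure. The 10C-DMSO larvae differed from 96hpf by cold, by 12 h and by the vehicle, which cannot be told apart here. In 10C-DMSO against 96hpf 2 were higher and 1 lower, against 7.14% and 5.27% of all genes. eif5 averaged 106 ± 4.08 in 10C-DMSO and 184 ± 11.2 in 96hpf, a log2 change of -0.79. eif4a1a changed by 0.64, a call lost without 10C-DMSO replicate 1 (0.54), and eif4g2b (ENSDARG00000057167) by 0.77. At an adjusted p with any fold 26 were higher and 6 lower, against 17.9% and 15.7% of all genes. But with TPM as deposited the median of all genes moved to -0.14 and 5 of these members turned negative, and with quantile normalization 9 did. Among markers 4 of 9 epidermis, 3 of 10 skeletal muscle and 1 of 6 liver identifiers were higher in this comparison, and 1 of 13 exocrine pancreas was lower. Epidermis markers summed to 8351 to 9842 scaled TPM in 10C-DMSO and 6003 to 6810 in 96hpf. Their part was not tested.

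In 28C-DMSO against 96hpf 0 members were called by limma, against 2.75% of all genes. These groups differ by 12 h and by the vehicle, which cannot be told apart. The unadjusted p was under 0.05 for 33 members, against 22.1% of all genes. With any fold 17 passed the adjusted p upward and 6 downward, against 4.65% and 5.41% of all genes. Of the 17, 12 are eIF3 genes, among them eif3m at 0.27, eif3d at 0.25 and eif3f at 0.34. In the same comparison 11 of 13 exocrine pancreas identifiers were higher, with sums of 24906 to 26317 scaled TPM in 28C-DMSO and 15275 to 16786 in 96hpf, and 3 of 7 photoreceptor and 2 of 8 proliferating-cell identifiers were lower. Their part was not tested. eif4a1a and eif1axa went the other way, at -0.49 and -0.44. The count of calls was 2 without 96hpf replicate 1 or 28C-DMSO replicate 2, and 1 without 96hpf replicate 2 or 28C-DMSO replicate 1.

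Neither kinase inhibitor gave a called member against DMSO at either temperature. In 28C-PD against 28C-DMSO 0 members were called by limma, against 1.49% of all genes. The unadjusted p was under 0.05 for 27 members, against 19.2% of all genes. With any fold 4 passed the adjusted p upward, eif4a1a at 0.40, eif4g1a at 0.34, eif4g2a at 0.17 and eif4g3b (ENSDARG00000116386) at 0.44, against 2.64% of all genes. Another 8 were lower, 7 eIF3 identifiers and eif5a, against 4.13%. The largest of these were eif3g at -0.26 and eif3m at -0.25. In the same libraries liver markers summed to 5706 to 5947 scaled TPM in 28C-PD and 7321 to 8014 in 28C-DMSO, and epidermis markers to 5304 to 5772 in 28C-PD and 7293 to 8326 in 28C-DMSO. Erythroid markers summed to 3191 to 3266 in 28C-PD and 4149 to 4629 in 28C-DMSO, and exocrine pancreas markers to 19101 to 21924 in 28C-PD and 24906 to 26317 in 28C-DMSO. Of all these marker identifiers 2 were called lower, both of epidermis, and their part was not tested. With TPM as deposited the median of all genes moved to 0.12 and eif3s6ip turned from -0.14 to 0.0064. Without 28C-DMSO replicate 2, 1 member was called.

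In 10C-PD against 10C-DMSO 0 members were called, against 0.382% of all genes. The adjusted p was passed upward by 1 member (eif4ebp3l, 0.32) and downward by 0, against 0.274% and 0.568%. The unadjusted p was under 0.05 for 20 members, against 12.7% of all genes. With SB203580 0 members were called and 0 passed the adjusted p at either temperature, against 0.0207% of all genes called at each, and against 0.0788% past the adjusted p at 10 °C and 0.0456% at 28 °C. The unadjusted p was under 0.05 for 5 members in 10C-SB against 10C-DMSO and for 8 in 28C-SB against 28C-DMSO. Of all genes 8.68% and 8.61% were under it in these comparisons. With both kinase inhibitors at 10 °C the paper's count-based test listed more genes than were called here. These counts thus do not show that the members were unaffected. For the difference between temperatures 0 members were called with PD0325901 and 0 with SB203580, against 1.62% and 0.0290% of all genes. An unadjusted p under 0.05 was found for 15 and 6 members, against 17.1% and 8.1% of all genes. Past the adjusted p with any fold there were 3 higher and 3 lower with PD0325901, against 2.27% and 1.88%, and 0 with SB203580, against 0.0373%. The count with PD0325901 was 2 without 28C-DMSO replicate 1 or 10C-PD replicate 3, and 1 without 28C-PD replicate 1 or 3 or 10C-DMSO replicate 2 or 3.

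The steadiest members over all 27 libraries, by SD of log2 values, were eif4ebp2 (0.121), eif3eb (ENSDARG00000113466) (0.123) and eif3ea (0.126). The widest were eif2b2 (ENSDARG00000114220) (1.02), eif4a1b (ENSDARG00000116907) (0.512) and eif4a1a (0.500). eif3eb, for the e subunit of eIF3, was a reference gene of the study's qPCR, so the primers that measured it are shown whole, 5′ to 3′, in lower case:
eif3eb forward: ttcttcctggttgcttgctt
eif3eb reverse: gctgatgctgatgcactgat
Its main identifier, ENSDARG00000113466, averaged 220 ± 4.31 scaled TPM in 10C-DMSO and 223 ± 2.99 in 28C-DMSO, a log2 change of -0.02 (adjusted p = 0.673, limma). It averaged 266 ± 7.49 in 28C-AS, a log2 change of 0.25 from 28C-DMSO, and 198 ± 1.87 in 28C-PD, a change of -0.17. The study normalized its qPCR to eif3eb and mdh2 together, and that pair was not tested in these groups. The minor identifier ENSDARG00000002549 was at 4.68, 6.20 and 4.70 in 10C-DMSO libraries and at 8.57, 7.05 and 9.19 in 28C-DMSO libraries.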

How the data were processed

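The authors deposited 1 table of TPM values for 24101 genes in 27 libraries. Per the study's methods, reads were assigned to Ensembl cDNA with Salmon 0.13.1 and summed to genes with tximport, and genes stayed in the table where some group had TPM of 1 or more in each of its replicates, so a member high in 1 group alone could be listed through that group. Each library was scaled by a size factor from the median ratio to the mean library (0.940 to 1.11). R 4.3.3 with limma 3.58.1 (trended prior) was run on log2(scaled TPM + 1), which understates changes of low genes, with 1 mean per group over all 27 libraries, 18 residual degrees of freedom, two-sided p and Benjamini-Hochberg adjustment over all genes in each of 15 comparisons. The script was tested on simulated data. Alternatives were TPM as deposited, quantile normalization, other pseudocounts, filters on low values, library weights, fits of only the groups compared, a replicate block and leaving out each library. Groups came from sample titles. Named members were those called in any comparison, their duplicates, the most abundant of each role, eif3eb, the steadiest and the most variable, and those past the adjusted p in all 4 cold responses. Members and lists were chosen with earlier results of these data known. Of 74 identifiers 60 matched a table of gene names. Promoter and protein sequences were not used here.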

Additional observations from a re-analysis of the deposited data

Results flagged for a closer look

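The change with AS1842856 differed between temperatures in 23 members, tested as the change at 10 °C minus the change at 28 °C in the limma fit. Values are log2 differences. Among eIF2, eIF2B and tRNA delivery genes these were eif2a at -0.88, eif2s1b at -0.71, eif2s1a at -0.61, eif2s2 at -0.59 and eif2b2 (ENSDARG00000114220) at -2.85. That eif2b2 value has a standard error of 0.77, and the other eif2b2 copy, ENSDARG00000041397, was at 0.07 and not called. Among eIF3 genes the members called were eif3ba at -0.78, eif3s10 at -0.76, eif3s6ip at -0.72, eif3c at -0.67 and eif3hb at 0.74. Among helicase genes and helpers they were eif4bb (ENSDARG00000112432) at -1.01, eif4bb (ENSDARG00000010194) at -0.88, eif4a1a at -0.80, eif4ba (ENSDARG00000017439) at -0.80 and eif4ba (ENSDARG00000117080) at 1.69. The last is the copy listed through 28C-DMSO alone, so its value is built in by the filter, and the summed symbol eif4ba was at -0.44 and not called. The start-codon factor genes were eif1axa at -0.94 and eif5b at -0.63. The others with a negative difference were eif4g1a at -1.04, eif5a2 at -1.01 and eif6, which encodes a factor that keeps the ribosomal subunits apart, at -0.60. Those with a positive difference were eif4ebp3 at 1.00, eif4e3 at 0.91 and eif4ebp3l at 0.64.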

How the results depend on the processing

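AS1842856 at 28 °C had 19 to 26 calls over the other settings and 24 to 27 when single libraries were left out (24 as reported), and the difference by temperature had 20 to 23 under either (23 as reported). Other counts moved by more than 1.5 times, and the cause was not tested. With TPM as deposited they were 11 for 10C-PD against 28C-PD (6 as reported), 6 for 10C-DMSO against 96hpf (3), 3 for 28C-DMSO against 96hpf (0), 1 for 28C-PD against 28C-DMSO (0) and 2 for the PD0325901 difference (0). With quantile normalization they were 7 for 10C-DMSO against 28C-DMSO (4), 4 for 10C-SB against 28C-SB (2) and 1 for 28C-DMSO against 96hpf. A pseudocount of 0.1 or 0.5 gave 1 for 28C-DMSO against 96hpf, library weights gave 2 for the PD0325901 difference, and a fit of only the groups compared gave 0 for 10C-AS against 10C-DMSO (2). Summing identifiers of a symbol, chosen after seeing the data, gave 0 there and 3 for 10C-PD against 28C-PD. Leaving out single libraries gave 4 to 9 for 10C-DMSO against 28C-DMSO, 19 to 23 for 10C-AS against 28C-AS (18), 6 to 8 for 10C-PD against 28C-PD, 2 to 5 for 10C-SB against 28C-SB, 2 to 4 for 10C-DMSO against 96hpf, 0 to 2 for 28C-DMSO against 96hpf, 10C-AS against 10C-DMSO and the PD0325901 difference, and 0 to 1 for 28C-PD against 28C-DMSO. The share of all calls that were higher moved, with TPM as deposited, to 37.7% against 59.11% for 10C-PD against 28C-PD, 36.1% against 57.5% for 10C-DMSO against 96hpf, 22.03% against 40.9% for 28C-DMSO against 96hpf, 66.1% against 34.5% for 28C-PD against 28C-DMSO and 30.9% against 61.5% for the PD0325901 difference. Directions turned in 10C-DMSO against 96hpf with TPM as deposited for eif3m (-0.043), eif3g (-0.029), eif2s1b (-0.0245), eif3s6ip (-0.043) and eif3eb (ENSDARG00000113466) (-0.017), and with quantile normalization for eif2s3 (-0.082), eif3m (-0.10), eif3g (-0.073), eif5a (-0.0039), eif2s1b (-0.076), eif5a2 (-0.036), eif3ba (-0.021), eif3s6ip (-0.11) and eif3eb (ENSDARG00000113466) (-0.082). In 10C-PD against 28C-PD eif4g2a turned to -0.0033 for TPM as deposited and -0.062 after quantile normalization, and in 28C-PD against 28C-DMSO eif3s6ip turned to 0.0064 with TPM as deposited. For summed symbols eif3eb (ENSDARG00000002549) turned to 0.071 in 10C-PD against 28C-PD and to 0.13 in 10C-DMSO against 96hpf, and eif4ba (ENSDARG00000117080) to 0.54 in 28C-AS against 28C-DMSO and -0.44 in the AS1842856 difference.

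In no comparison were the correlations of deviations of same-numbered libraries over 0.1 in all 3 pairs. 10C-DMSO against 28C-DMSO came nearest, at 0.310, 0.141 and 0.0987, against a mean of -0.0907 for other numbers, and the labels give no pairing, so the numbers were not taken to pair samples. With the replicate block 24 members were called in 28C-AS against 28C-DMSO, 23 in the AS1842856 difference and 4 in 10C-DMSO against 28C-DMSO, and no count of calls moved.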
